A study of Mus musculus with 9 samples.

Results

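The splicing factor and heterogeneous nuclear ribonucleoprotein (hnRNP) genes were followed across stages of mouse megakaryocytes, the cells that shed platelets. They were taken as the probe sets paired with exactly 1 gene symbol that starts with Snrp, Sf3a, Sf3b, Srsf or Sfrs and a digit, Hnrnp, Hnrp or Prpf. There were 138 such probe sets for 54 genes, of 22690 probe sets on the array, of which 20380 had 1 gene symbol. Every one of the 138 was found in the RefSeq gene table under the same symbol.

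Bone marrow or fetal liver preparations were grown with thrombopoietin, and flow cytometry picked cells by the lineage marker CD41 and by size as forward scatter. RNA was hybridised to Affymetrix MOE430A arrays, on which a probe set is a group of short oligonucleotides that reports 1 stretch of a transcript, mostly near its 3' end. There were 2 arrays each of the stages MKP, MK3 and MK4 and 3 of MK6. Suspensions were collected on culture days 3, 4 and 6, and no day is tied to MKP. No strain, age or pooling is given, separate cultures are not stated for the arrays of a stage, and the p-values therefore speak only of the spread between these arrays, which may be technical.

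Introns are removed from precursor RNA by the spliceosome, which is built on small nuclear RNAs. The Sm proteins form a ring on these RNAs, and the U1 particle marks the start of the intron. The U2 particle with its SF3A and SF3B proteins holds the branch point. PRPF8, a protein of the U4/U6.U5 particle, is the scaffold of the catalytic core. SR proteins bind exons and generally promote their use, hnRNPs coat nuclear RNA and often oppose it, and mutations of SF3B1 and SRSF2 recur in human myelodysplastic syndromes. Many SR and hnRNP genes of mammals hold conserved exons whose inclusion sends the transcript to decay.

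Of the 20380 probe sets with 1 symbol, 14516 passed the filter on low values (71.2%), and so did 129 of the 138 members. All 54 genes but Snrpn had a tested probe set. Signals were scaled to a common trimmed mean of 161.3, and every difference below is on the scale log2(scaled signal + 15.2). The constant makes differences of dim probe sets look smaller than they are, and the scaling hides any shift in the amount of RNA a cell holds. Fewer cells of a type and less RNA per cell cannot be told apart in such sorted pools.

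The arrays differed in quality. The 3' to 5' ratio of the beta-actin control, which grows as RNA breaks, was 1.49, 1.33 and 3.21 on MK6 replicates 1, 2 and 3, against 0.957 to 1.09 on the 6 earlier arrays. That of the Gapdh control was 0.996, 1.13 and 3.27 on these replicates, against 0.805 to 0.97 on the earlier arrays. The deposited trimmed mean was 102.6 on MK6 replicate 1 and 102.3 on replicate 3, and 122.6 to 221.2 on the other arrays. Megakaryocyte markers were present on every array, with a summed signal of 17156 to 20411 over 10 genes in MK6 and 10270 to 10569 in MKP, and 3 of 11 probe sets rose (Itga2b, Pf4 and Vwf), while Itgb3 lay at -2.01 (adjusted p = 0.0518 in limma). Neutrophil markers summed to 6558 to 28898 over 10 genes in MK6 and 38597 to 47413 in MKP, and 5 of 10 probe sets fell. Macrophage markers summed to 9776 to 22364 in MK6 and 8827 to 11448 in MKP, with 8 of 16 probe sets below 0, 2 of them called lower (both of Csf1r), and 1 called higher (Cd68). The sums ran for mast cell and basophil markers from 482 to 589 in MK6 and 835 to 1084 in MKP. Of these 2 of 7 probe sets were called lower (Hdc), while Fcer1a lay at 1.34 and did not pass. For erythroid markers the sums ran from 415 to 549 in MK6 and 346 to 462 in MKP. Those of lymphocyte markers ran from 101 to 203 in MK6 and 150 to 196 in MKP, with Cd3e, Cd3g and Pax5 below the filter on every array. No marker list was used as a covariate, and their part in the results below was not tested.

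The promoters of 4 of the genes with a probe set called lower in MK6 are shown because they share the motif CCGGAA, frequent among the members. Each line gives the 250 bases before the annotated start from RefSeq (GRCm38.p6), 5′ to 3′ on the strand of the gene. Capitals mark CCGGAA, the core of ETS factor sites, and CCAAT, the box bound by NF-Y, on either strand.
Srsf1, chr11:88047123-88047372, plus strand: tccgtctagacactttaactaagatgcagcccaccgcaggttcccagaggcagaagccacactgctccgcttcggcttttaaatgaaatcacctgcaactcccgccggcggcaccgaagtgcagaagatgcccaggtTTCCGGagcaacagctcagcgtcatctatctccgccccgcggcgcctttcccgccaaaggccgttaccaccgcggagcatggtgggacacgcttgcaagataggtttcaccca
Srsf2, chr11:116853095-116853344, minus strand: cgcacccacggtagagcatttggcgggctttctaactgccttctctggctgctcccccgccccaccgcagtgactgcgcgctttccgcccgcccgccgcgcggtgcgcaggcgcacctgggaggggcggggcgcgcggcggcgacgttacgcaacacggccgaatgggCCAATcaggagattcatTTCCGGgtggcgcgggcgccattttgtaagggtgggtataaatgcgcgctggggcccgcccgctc
Hnrnpab, chr11:51606882-51607131, minus strand: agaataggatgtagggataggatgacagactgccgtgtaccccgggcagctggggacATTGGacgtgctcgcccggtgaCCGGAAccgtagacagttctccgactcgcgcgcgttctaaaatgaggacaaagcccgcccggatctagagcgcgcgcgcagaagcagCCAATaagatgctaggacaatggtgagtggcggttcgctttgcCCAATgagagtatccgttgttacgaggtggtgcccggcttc
Sf3a3, chr4:124714611-124714860, plus strand: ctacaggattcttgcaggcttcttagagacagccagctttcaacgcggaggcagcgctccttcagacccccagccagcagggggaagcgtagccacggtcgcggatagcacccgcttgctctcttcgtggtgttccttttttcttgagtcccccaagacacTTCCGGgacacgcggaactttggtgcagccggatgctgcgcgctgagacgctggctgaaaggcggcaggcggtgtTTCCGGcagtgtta
RefSeq windows were found for 49 of the 54 member genes, 68 windows in all. CCGGAA or its reverse complement stood in 32 of these 68 (47.1%), against 12% of all 32851 windows of the same length. CCAAT stood in 47.1% of member windows and 33.8% of all, the GC box GGGCGG in 61.8% and 32.7%, the E-box CACGTG in 7.35% and 6.02%, and TATAAA in 7.35% and 12.4%. Counted by gene, CCGGAA stood in windows of 27 of the 49 members. Among the 8 genes with a probe set called lower, it was in the windows of the 4 shown here. CCAAT was in those of Hnrnpab, Srsf2, Hnrnpl and Hnrnpr, GGGCGG in those of 7, TATAAA in that of Srsf2, and CACGTG in none. These are letter matches, and none of them says that a factor binds there.

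Between MK6 and MKP, 12 of the 129 tested member probe sets fell and 0 rose in limma, with a Benjamini-Hochberg adjusted p below 0.05 over all tested probe sets. Of the 14516 probe sets tested, 6.91% were called, 4.27% lower and 2.64% higher, beside 9.3% of the members lower. The 12 belong to 8 genes: the SR protein genes Srsf1 (3 probe sets), Srsf2 (2), Srsf6 and Srsf9, the U2 particle gene Sf3a3, and the hnRNP genes Hnrnpab (2), Hnrnpl and Hnrnpr. With 1 probe set a gene, that with the highest mean signal, 2 of 53 were lower (Srsf9 and Hnrnpl), beside 3.03% of all. In the other called genes the probe set with the highest mean signal did not pass. At an unadjusted p below 0.05, 41 members were lower and 1 higher (31.8% and 0.775%), against 13.3% and 11.7% of all tested probe sets. Every MK6 array lay below both MKP arrays for 53 members (41.1%, against 21.1% of all) and above both for 4 (3.1%, against 22.6% of all), which were probe sets of Hnrnpab, Srsf2, Sf3b4 and Sf3b6. Of the member differences 98 were below 0 (76%, against 44.6% of all tested). The median difference was -0.30 over the members and 0.08 over all tested probe sets. Over the members it was -0.18 without MK6 replicate 1 and -0.46 without MKP replicate 1, with 0.05 and 0.07 over all. The shares of all tested probe sets are not matched for signal, and the members were brighter. On the MKP arrays the member median was 8.46 and 8.64 on the log2 scale, against 7.15 and 7.19 over all. With a filter at the 60th percentile, 13 of 115 members were lower, beside 5.51% of all tested.

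The calls rest on few arrays. Without MKP replicate 1 or MKP replicate 2 no member was called, while over all probe sets 5 and 18 were. Without MK6 replicate 3 the count was 3 (Srsf1, Sf3a3 and Hnrnpr), beside 1.3% of all tested probe sets lower. Without either MK4 array it was 7, beside 2.72% of all. Without MK6 replicate 2 it was 22 lower, beside 6.7% of all, and 1 higher. Without MK6 replicates 1 and 3, a choice made after seeing the data, it was 0 (87 over all probe sets).

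**Figure D1:**
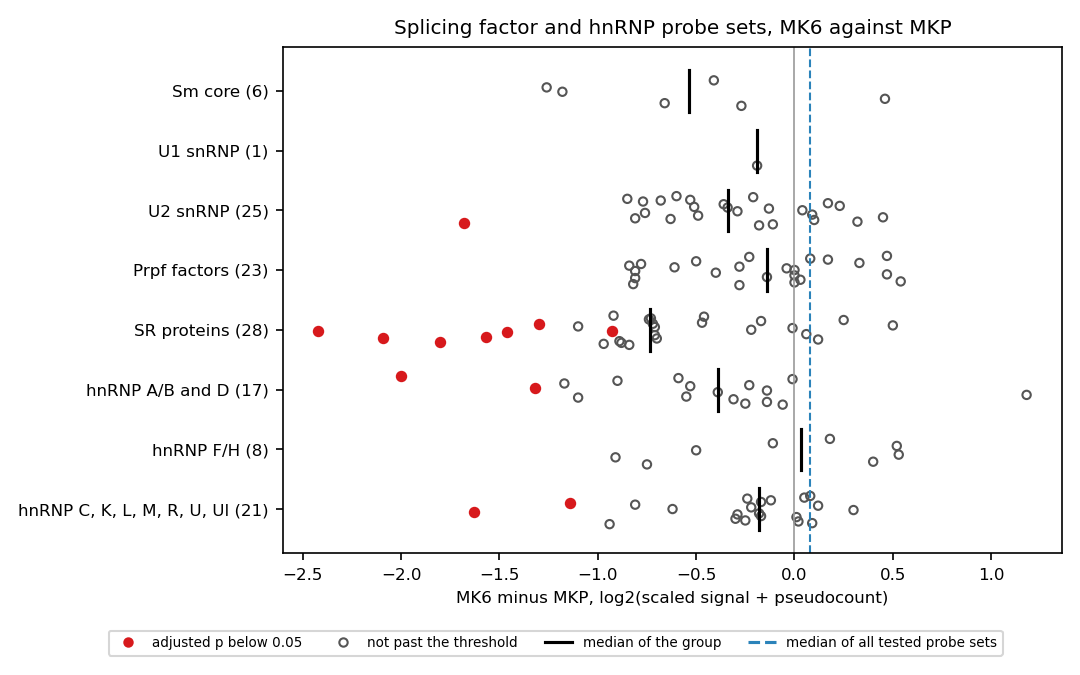
The MK6 minus MKP difference (horizontal axis, log2 scale) of each of the 129 tested member probe sets, by role, with the number tested in brackets. Filled red points passed an adjusted p of 0.05, the black bar is the median of a group and the dashed line the median of all tested probe sets (0.08). The 12 filled points all lie below 0, and 7 of them are SR protein probe sets.

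SR proteins held 7 of the 12 calls, on 4 of 9 genes. Of 28 tested probe sets 24 had a difference below 0, with a median of -0.73, and 17 had every MK6 array below both MKP arrays. Of all tested probe sets 44.6% had a difference below 0, 21.1% had every MK6 array below both MKP arrays and 4.27% were called lower. The array with the lowest SR median was MK6 replicate 1, at -1.24 from the MKP mean, with -0.59 on replicate 3 and -0.42 on replicate 2. The SR median was -0.61 and -0.27 on MK3 replicates 1 and 2, and -0.22 and -0.32 on those of MK4. MK3 replicate 1 thus lay below MK6 replicates 2 and 3.

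Srsf1, the archetypal SR protein that promotes exon inclusion, had the largest fall. The scaled signal of its probe set 1452430_s_at was 622 and 995 on the MKP arrays, 321 and 372 on MK3, 625 and 523 on MK4, and 126, 250 and 76.0 on MK6. All 3 MK6 arrays lay below every earlier array, and MK3 and MK4 did not overlap. The mean on the log2 scale was 7.23 ± 0.78 in MK6 (SD, n = 3) and 9.65 ± 0.47 in MKP (SD, n = 2). The difference was -2.42 ± 0.39 (standard error, adjusted p = 0.00975 in limma). Its probe set 1430982_at fell by 2.09 ± 0.56 (adjusted p = 0.0498 in limma). The signal there was 11.9, 129 and 36.4 in MK6, so replicates 1 and 3 lay below the filter of 46.7. This probe set did not pass with either other filter, either other scaling or the smaller pseudocount. Srsf1 probe set 1453722_s_at fell by 1.80 ± 0.45 (adjusted p = 0.04 in limma). The 3 others gave -1.10, -0.84 and -0.74 and did not pass, so all 6 probe sets had a difference below 0.

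Srsf2, whose protein binds exonic enhancers, had a signal on 1415807_s_at of 1442 and 1027 on the MKP arrays, 821 and 830 on MK3, 818 and 594 on MK4, and 379, 590 and 359 on MK6. The MK6 arrays were again the lowest of the 9, with replicate 2 just below the lower MK4 array. The difference between MK6 and MKP was -1.46 ± 0.28 (adjusted p = 0.0162 in limma). A second probe set, 1452439_s_at, gave -1.57 ± 0.32 (adjusted p = 0.0183 in limma). The other 2 probe sets did not pass, at -0.97 and 0.50. The last, 1427816_at, stood at 197, 79.1 and 78.4 in MK6 and 73.5 and 70.3 in MKP, so its MK6 arrays were all above MKP.

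Srsf9, a short SR protein, was measured by 1 probe set, with 736 and 841 on the MKP arrays, 509 and 629 on MK3, 553 and 519 on MK4, and 230, 429 and 298 on MK6. Its stages stepped down with MK3 and MK4 alike, and MK6 overlapped no other stage. The difference between MK6 and MKP was -1.30 ± 0.27 (adjusted p = 0.0207 in limma).

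Srsf6, a larger SR protein with a pair of RNA recognition motifs, showed 551 and 576 on the MKP arrays, 427 and 360 on MK3, 406 and 367 on MK4, and 240, 344 and 288 on MK6 (1416721_s_at). The MKP arrays were the highest and the MK6 arrays the lowest. This was the smallest called difference, -0.93 ± 0.23 (adjusted p = 0.0379 in limma). Of its other probe sets 1 gave -0.88 (adjusted p = 0.0814 in limma) and 1 gave 0.25, neither past the threshold.

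The remaining SR genes did not pass. Srsf3, the smallest SR protein, ranged over its 6 probe sets between -0.92 and 0.06. On its lowest, 1454993_a_at, the signal was 95.4, 282 and 250 in MK6 and 336 and 416 in MKP, and replicate 1 stood apart from the other MK6 arrays. Srsf4 lay at -0.71, Srsf5 at -0.70, the 4 probe sets of Srsf10, a splicing repressor when dephosphorylated, between -0.72 and -0.01, and the 2 of Srsf11 at -0.17 and 0.12.

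**Figure D2:**
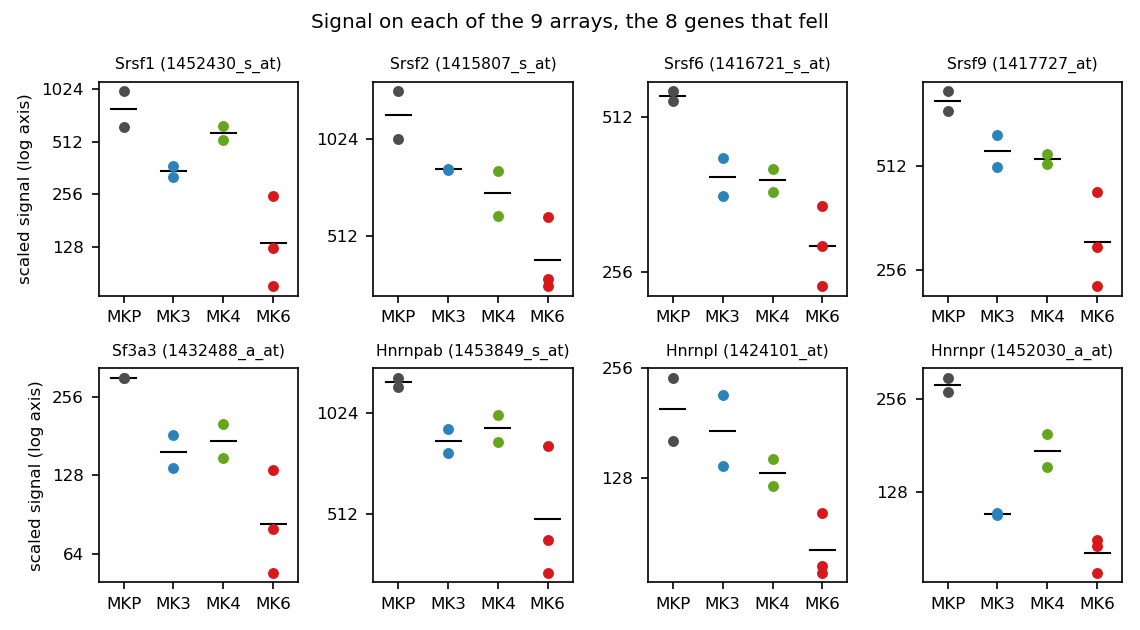
Scaled signal on each of the 9 arrays (vertical log axis) by stage for 1 called probe set of each of the 8 genes that had one. Other probe sets of these genes are not shown. Points are arrays and the bar is the geometric mean of a stage. The 3 MK6 points lie below both MKP points in every panel.

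Among proteins of the small nuclear ribonucleoproteins, 1 of 25 tested U2 probe sets fell, with 0 of 6 for the Sm ring and 0 of 1 for U1. Of all tested probe sets 4.27% were called lower. Sf3a3 encodes a subunit of SF3A, which joins U2 to the branch point. Its probe set 1432488_a_at had 303 and 301 on the MKP arrays, 183 and 136 on MK3, 202 and 149 on MK4, and 79.7, 134 and 54.2 on MK6. MKP stood above every later array, and MK6 below every earlier one. The difference between MK6 and MKP was -1.68 ± 0.32 (adjusted p = 0.0162 in limma), while the other Sf3a3 probe set gave -0.29 (adjusted p = 0.556 in limma).

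The 25 tested U2 probe sets had a median of -0.34 (-0.17 without MK6 replicate 1), with 18 below 0, where 44.6% of all tested were. Sf3b1, which grips the branch point helix, lay at -0.49, -0.36 and -0.21 on its 3 probe sets, none past the threshold. On 1418562_at it had 406, 524 and 584 in MK6 and 679 and 732 in MKP, which do not overlap (adjusted p = 0.211 in limma). Sf3b5 lay at -0.85, where replicate 1 alone stood apart (119, 498 and 443 in MK6, 733 and 421 in MKP). Sf3a2 lay at -0.81 and -0.53, Sf3a1 at -0.51 and -0.18, Snrpb2 at -0.68 and -0.63, Sf3b3 at -0.11, and the 4 probe sets of Sf3b2 between -0.77 and 0.10. Those of Snrpa1 ran from -0.60 to 0.09. All tested probe sets of Sf3b4 (0.23 and 0.45) and Sf3b6 (0.04 to 0.32) were above 0, and none of them passed.

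The Sm ring had 6 tested probe sets and no call, with a median of -0.53, which was -0.18 without MK6 replicate 1. From the MKP mean its median was -1.31, -0.20 and -0.16 on MK6 replicates 1, 2 and 3. Snrpd3 gave -1.26 ± 0.47 on 1422884_at (adjusted p = 0.132 in limma) and 0.46 on another probe set. Snrpg gave -1.18 ± 0.41 on 1448357_at (adjusted p = 0.108 in limma) and -0.66 on another. The signal of that first Snrpg probe set was 271, 779 and 638 in MK6 and 1499 and 931 in MKP, without overlap but with a wide spread in both stages. Snrpe lay at -0.41 and Snrpb at -0.27. The U1 protein Snrpc lay at -0.19, with 546, 487 and 710 in MK6 and 742 and 583 in MKP, which overlap. Snrpn, the neural Sm protein, was at 9.14, 3.22 and 13.4 in MK6 and 5.93 and 3.02 in MKP on its 1 probe set with a single symbol, below the filter of 46.7 throughout, and was not tested.

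None of the 23 Prpf probe sets passed, and their median was -0.14 (-0.27 without MKP replicate 1, -0.06 without MK6 replicate 2). Of them 16 were below 0, beside 44.6% of all tested. Prpf4b, a kinase of the assembling spliceosome, ranged from -0.84 to 0.54 over 6 probe sets. On 1425498_at it had 112, 111 and 84.5 in MK6 and 178 and 211 in MKP, a difference of -0.84 ± 0.26 (adjusted p = 0.0787 in limma), and on 1425497_a_at the difference was -0.82 (adjusted p = 0.059 in limma). Prpf31, which holds the U4/U6 particle together, had 162, 174 and 178 in MK6 and 349 and 280 in MKP on 1448633_at (-0.81 ± 0.23, adjusted p = 0.0553 in limma), and its other probe set lay near 0. With a stricter filter, under which fewer probe sets are tested, this Prpf31 probe set and Prpf4b 1425497_a_at passed. Prpf8, the scaffold of the catalytic core, had 623, 956 and 812 in MK6 and 1254 and 1158 in MKP, a difference of -0.61 that did not pass (adjusted p = 0.157 in limma). Prpf19, a ubiquitin ligase of the active spliceosome, lay at -0.81, -0.28 and -0.28, Prpf38a at -0.78, Prpf40b at -0.40, Prpf38b at -0.23 and near 0, and Prpf39 between -0.50 and 0.03. Prpf3 (0.17) and the 3 probe sets of the tri-snRNP bridge Prpf6 (0.33 to 0.47) were above 0.

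Of the hnRNP probe sets 4 were called lower, on Hnrnpab (2), Hnrnpl and Hnrnpr. These were 2 of 17, 2 of 21 and 0 of 8 tested in the 3 groups below, beside 4.27% of all tested probe sets. The hnRNP groups differed in median: -0.39 for the A/B and D proteins, -0.18 for the mixed group of C, K, L, M, R and U, and 0.03 for F and H. The F and H median became -0.09 with scaling to a common median, -0.29 without MKP replicate 1 and 0.35 without MKP replicate 2. The median of the mixed group was -0.02 without MK6 replicate 1 and -0.34 without MK6 replicate 2.

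Hnrnpab, a protein of the A/B class also known for transport of RNA in the cytoplasm, was the most divided member. Its probe set 1453849_s_at had 1303 and 1225 on the MKP arrays, 779 and 917 on MK3, 1012 and 841 on MK4, and 344, 819 and 430 on MK6. MK6 replicates 1 and 3 were the lowest of the 9, while replicate 2 lay between the MK3 arrays. The difference was -1.32 ± 0.33 (adjusted p = 0.0381 in limma). On 1448144_at the fall was larger, -2.00 ± 0.44 (adjusted p = 0.0256 in limma), and 2 further probe sets lay at -1.17 and -0.31. Probe set 1426114_at ran the other way, with 1138, 476 and 967 in MK6 and 291 and 413 in MKP. All MK6 arrays were above every earlier one, and the difference was 1.18 ± 0.35 (adjusted p = 0.0673 in limma). It passed without MK6 replicate 2, where it was the 1 member called higher.

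Hnrnpr, an RNA-binding protein close to Syncrip, was the member with the smallest adjusted p. Its probe set 1452030_a_at had 299 and 269 on the MKP arrays, 109 and 108 on MK3, 196 and 154 on MK4, and 89.2, 85.7 and 70.1 on MK6. MK3 was already far below MKP, MK4 lay between them, and MK6 was lowest. The difference between MK6 and MKP was -1.63 ± 0.23 (adjusted p = 0.0061 in limma). The other 2 probe sets did not pass, at -0.30 and -0.12.

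Hnrnpl, which binds CA repeats in RNA, had 162 and 241 on the MKP arrays, 138 and 216 on MK3, 144 and 122 on MK4, and 103, 73.6 and 70.5 on MK6. Only the MK6 arrays lay clear of the other stages, since MK3 overlapped MKP. The difference between MK6 and MKP was -1.14 ± 0.29 (adjusted p = 0.0401 in limma). Its paralogue Hnrnpll, best known as a regulator of Ptprc splicing in lymphocytes, lay at -0.29 and 0.08, neither past the threshold.

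Of the other hnRNP genes, Hnrnpa2b1 gave -1.10 ± 0.37 on 1420365_a_at (adjusted p = 0.0989 in limma), with 443, 1275 and 855 in MK6 and 1793 and 1614 in MKP, and -0.14 to -0.01 on its other 3 probe sets. Hnrnpd, which also controls decay of AU-rich transcripts, had 415, 498 and 342 in MK6 and 740 and 831 in MKP (-0.90 ± 0.25, adjusted p = 0.0587 in limma). Hnrnpa1, the classic silencer of exons, lay at -0.53 and -0.06, and Hnrnpdl between -0.59 and -0.23. Hnrnpf had 482, 755 and 487 in MK6 and 1092 and 1047 in MKP on 1450963_at, a difference of -0.91 that did not pass (adjusted p = 0.071 in limma), with its other probe sets between -0.75 and 0.52. Hnrnpk, which binds C-rich stretches, had 736, 1047 and 1042 in MK6 and 848 and 1000 in MKP on 1423684_at, which overlap, and a difference of 0.01 ± 0.24 (adjusted p = 0.977 in limma). Hnrnpc lay at -0.94 and 0.12, Hnrnph1 at -0.50 and 0.40, Hnrnph2 at -0.11, Hnrnph3 at 0.53, Hnrnpm at -0.22, Hnrnpul1 at -0.25, Hnrnpul2 at -0.18 and -0.17, and the 5 probe sets of Hnrnpu between -0.81 and 0.09.

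Of the 53 tested genes, 35 had at least 2 tested probe sets. In 16 of these every difference was below 0, in 3 every one was above 0, and in 16 the probe sets differed in sign. The first 16 include Prpf31 and Prpf38b, each with 1 difference near 0. The same count over all genes was not made. Whether probe sets of a gene moved by different amounts was tested in limma on the difference between each pair of them on each array, over all genes, a test chosen after seeing the data. Of the 150 member pairs 0 passed (1.54% of all 7794 pairs did), and 44 had an unadjusted p below 0.05 (29.3%, against 22.7% of all). The pair with the smallest adjusted p was Hnrnpab 1426114_at against 1448144_at, which differed by 3.18 ± 0.73 (adjusted p = 0.0588 in limma). Next came Srsf1 1434972_x_at against 1452430_s_at, at 1.67 ± 0.39 (adjusted p = 0.06 in limma). Probe sets named _s_at, which can read more than 1 transcript, held 6 of the 12 calls, those named _a_at 2, plain ones 4 and _x_at ones 0, among 17, 30, 66 and 16 tested. Of all tested probe sets of these kinds 4.44%, 5.71%, 4.04% and 2.11% were lower.

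**Figure D3:**
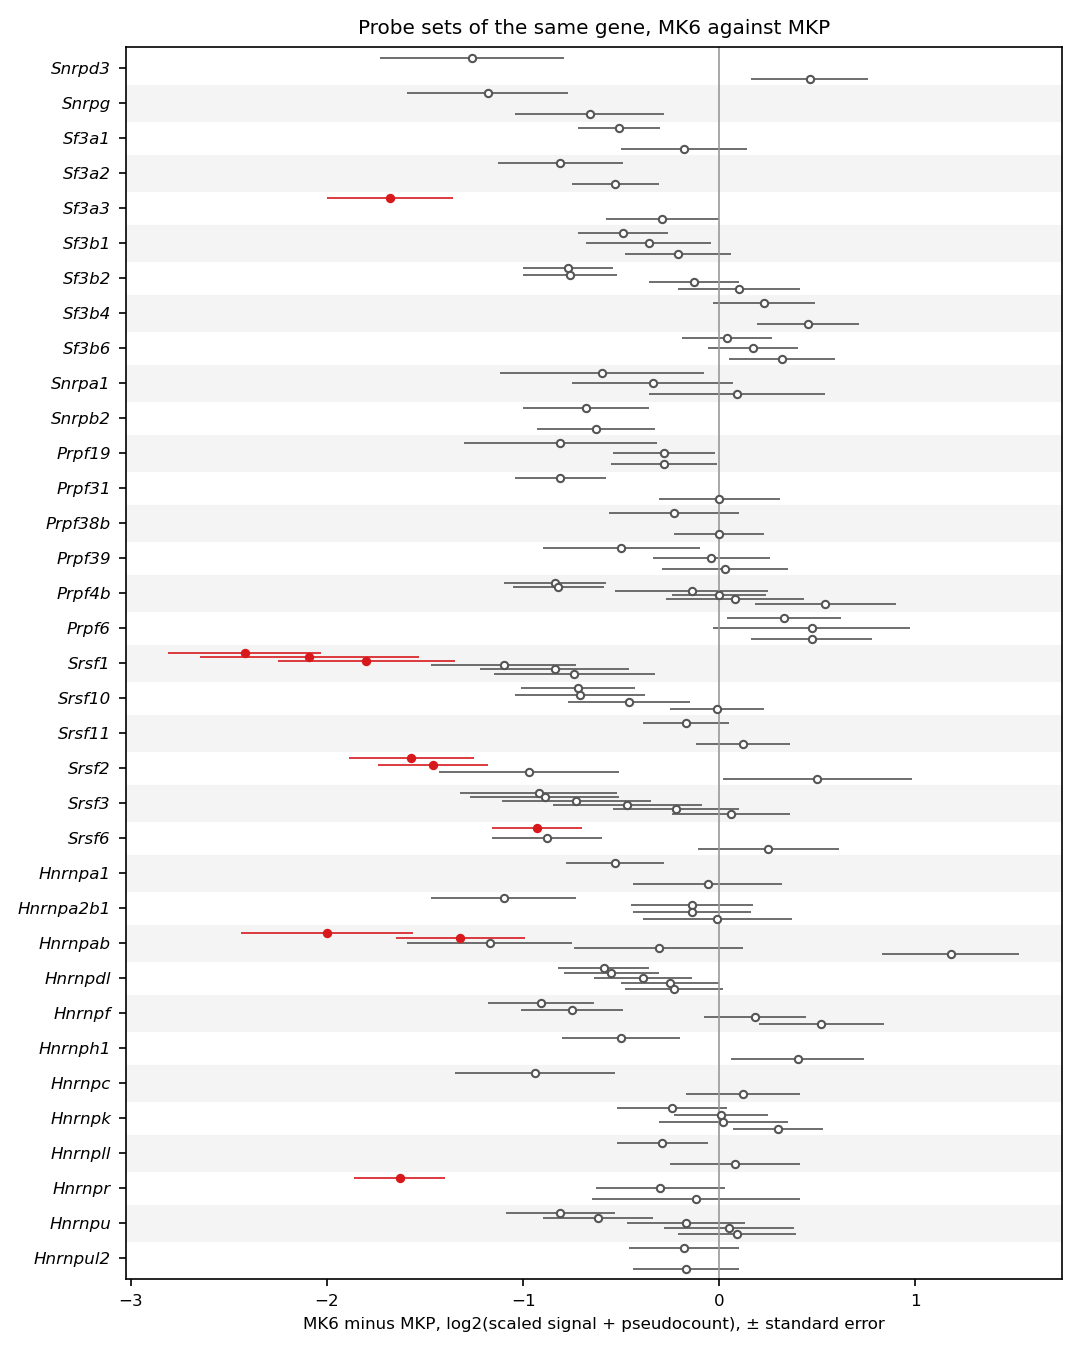
MK6 minus MKP (horizontal axis, log2 scale) with its standard error for every tested probe set of the 35 member genes that had at least 2. Filled red points passed an adjusted p of 0.05. The probe sets of Srsf1 all lie below 0, while those of Hnrnpab run from -2.00 to 1.18.

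The single steps gave no called member in limma. From MKP to MK3, 119 of 129 member differences were below 0 (92.2%, against 56.9% of all tested), with a median of -0.39 beside -0.07 over all, 0 called (0.0758% of all tested were, 0.0138% lower and 0.062% higher), and 14 lower and 0 higher at an unadjusted p below 0.05 (4.22% and 5.44% of all). Hnrnpr had the lowest value of that step (-1.28 ± 0.26, adjusted p = 0.111 in limma), followed by Snrpg (-1.17). Hnrnpr passed when only the arrays of these stages were fitted, and without MK6 replicate 1.

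From MK3 to MK4 the members lay at a median of 0.13, beside 0.07 over all, and 33 differences were below 0 (25.6%, against 40.6%). No member was called (0.0138% of all were), and 0 were lower and 3 higher at an unadjusted p below 0.05 (1.76% and 1.69% of all), on Hnrnpdl (0.72), Prpf4b (0.62) and Hnrnpr (0.62). From MK4 to MK6 the median was -0.20, beside 0.05 over all, and 80 differences were below 0 (62%, against 45%). Again 0 members passed (0.0276% of all did, 0.0207% lower and 0.00689% higher), with 13 lower and 3 higher at an unadjusted p below 0.05 (7.35% and 4.28% of all). The lowest was Srsf1 1452430_s_at, at -1.96 ± 0.39 (adjusted p = 0.0957 in limma), and the 3 higher ones were Hnrnpab 1426114_at (1.25), Sf3b6 (1.06) and Prpf3 (0.56). These steps share arrays with each other and with MK6 against MKP. The moderated F test over the 3 steps called 2 members, Srsf1 1452430_s_at and Hnrnpr 1452030_a_at (adjusted p = 0.0305 and 0.0237 in limma), which is 1.55% of members beside 2.59% of all tested.

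**Figure D4:**
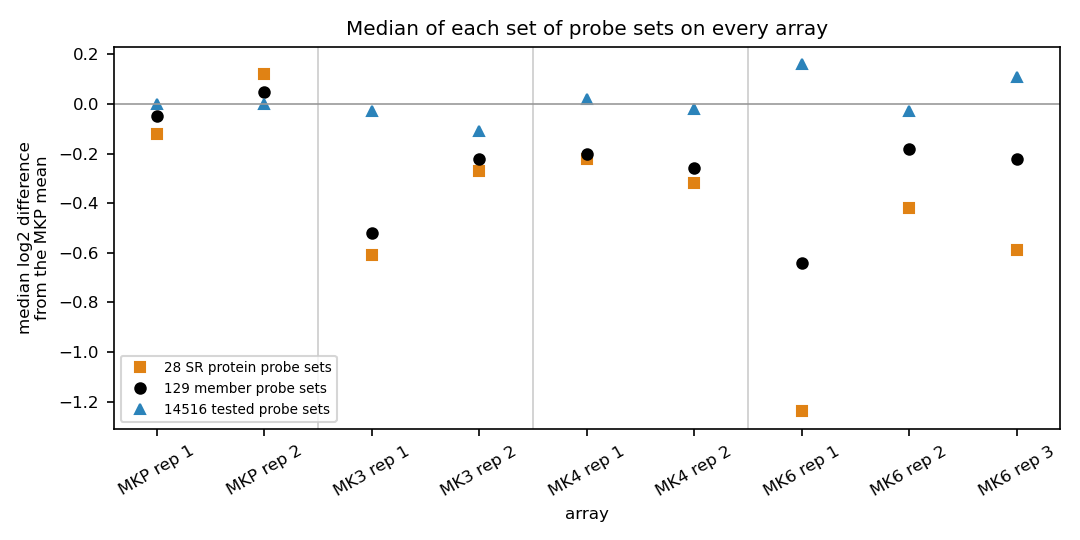
Median log2 difference from the MKP mean (vertical axis) on each array, for the 28 SR protein probe sets, the 129 member probe sets and the 14516 tested probe sets. MK6 replicate 1 has the lowest member median (-0.64), MK6 replicate 2 stands at -0.18 and replicate 3 at -0.22, and MK3 replicate 1 stands at -0.52.

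The arrays of a stage were not alike for these genes. From the MKP mean, the member median was -0.52 and -0.22 on the MK3 arrays, -0.20 and -0.26 on the MK4 arrays, and -0.64, -0.18 and -0.22 on the MK6 arrays. With the logarithm of the actin ratio as a covariate the member median was -0.50 and 0 members were called in limma, as were 0 of all 14516 probe sets. The ratio was higher on every MK6 array than on any earlier one, so this fit cannot separate the ratio from the stage.

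Other genes of the splicing machinery were taken from 8 lists of 104 genes, of which 85 were tested with 173 probe sets. Of these 12 fell and 0 rose in MK6 against MKP (6.94%, beside 4.27% of all tested lower), with a median of -0.35. The 12 belong to 11 genes. At an unadjusted p below 0.05 in limma, 47 were lower and 8 higher (27.2% and 4.62%, against 13.3% and 11.7% of all tested).

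Among SR-related proteins Pnn, a protein of nuclear speckles, had 1 probe set that fell, -2.44 ± 0.33 (adjusted p = 0.00559 in limma), and others at -0.36 and 0.18 that did not pass. Acin1 fell by 1.04 on 1 probe set, with -0.52 on the other. The kinase gene Clk4 lay at -1.46 and 0.07, and neither probe set passed. Among other regulators, Syncrip (-2.17 and -1.52), the polypyrimidine tract protein Ptbp1 (-1.85), Celf1 (-1.22) and Ewsr1 (-1.19) fell, 5 of 63 probe sets. Other probe sets of these genes did not pass: 0.49 for Ptbp1, -1.49 to 0.02 for Celf1, -0.23 and -1.04 for Syncrip, and -0.78 for Ewsr1. The branch point binder Sf1 fell by 1.92 on 1 probe set, with -1.0 and -0.57 on those that did not pass. Ddx46 lay at -1.19, -0.68 and -0.46, none past the threshold. All 13 probe sets of that list were below 0, beside 44.6% of all tested. Of the U1, U5 and tri-snRNP list Sart3, a recycling factor of the U4/U6 particle, fell on 1 probe set (-2.22) and lay at -0.43 on the other. Snrnp40 lay at -0.99 on 1 probe set and near 0 on the other, neither past the threshold. Of the LSm ring Lsm2 fell (-1.59) and Lsm3 lay at -0.61.

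The genes that load Sm proteins on their RNAs included 2 that fell, Smn1 (-1.25) and the arginine methyltransferase Prmt5 (-1.17). Wdr77, the partner of Prmt5, lay at -2.09 (adjusted p = 0.0748 in limma), -0.84 and -0.65, none past the threshold. None of the 26 probe sets of the Prp19 complex and catalytic factors passed (median -0.12). Aqr lay at -1.31, -0.14 and -0.09, and Slu7 at 0.90, 0.46 and 0.31. None of the 7 of the exon junction complex passed either (median -0.02). Rnps1 lay at -1.02, -0.02, 0.07 and 0.19, and Casc3 at -0.35.

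**Figure D5:**
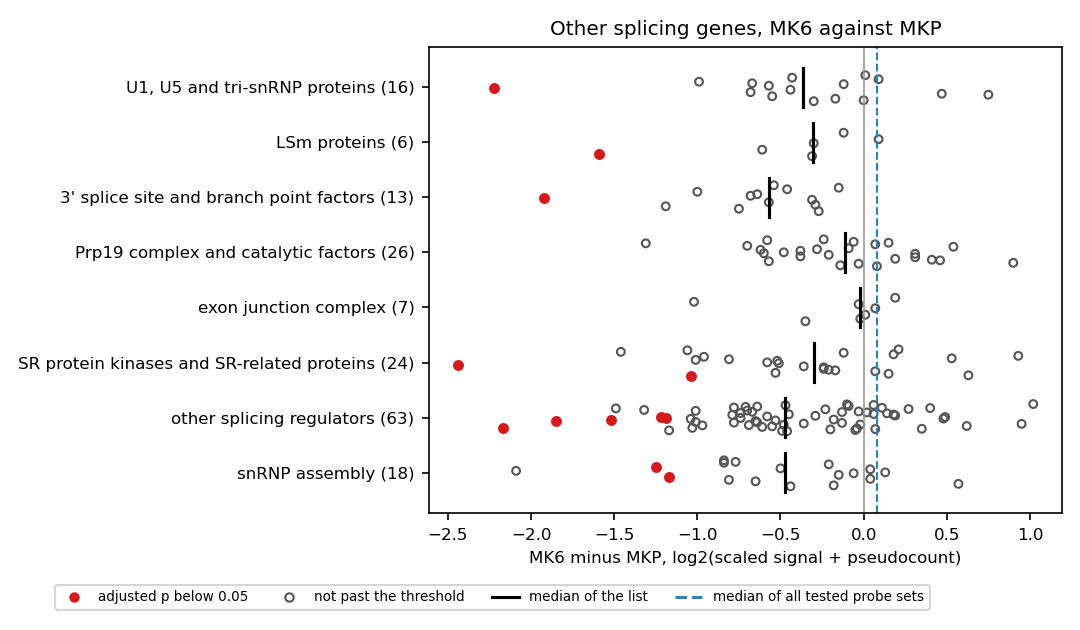
The MK6 minus MKP difference (horizontal axis, log2 scale) of each tested probe set of the other splicing genes, by list, with the number tested in brackets. Filled red points passed an adjusted p of 0.05, the black bar is the median of a list and the dashed line the median of all tested probe sets (0.08). The 12 filled points all lie below -1.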

How the data were processed

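Gene expression was measured on 9 Affymetrix MOE430A arrays. The values used are probe set intensities on a linear scale, deposited by the authors, who used MAS5, per the submitters' processing notes. Neither its version nor its settings are named in the sources used here. As deposited the 2% trimmed means ran from 102.3 to 221.2, beyond a tolerance of 10%, so each array was multiplied to their mean of 161.3. The pseudocount of 15.2 is the 20th percentile of all scaled values. Probe sets with 1 symbol in the platform annotation were tested where at least 2 arrays exceeded 46.7, the 40th percentile.

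Arrays were grouped by title, with replicates in accession order, so that MK6 replicates 2 and 3 are those titled replicate1 and replicate2. Limma 3.58.1 in R 4.3.3 fitted a mean per stage (lmFit and eBayes with trend, 5 residual degrees of freedom) to probe sets, since the members are probe sets. The contrasts were MK6 minus MKP, the 3 successive steps and a moderated F test over them. The procedure was tested on simulated data. The number of arrays limits the precision.

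The members, the role groups, the 8 lists and the tests were chosen with earlier results of these data known. Values on every array are given for the called member genes. Also named are 2 genes of each group and list by size of the difference, Sf3b1, Srsf1, Srsf2, Srsf3, Hnrnpa1, Hnrnpk, Hnrnpl, Hnrnpll, Snrpn and Prpf8, and genes whose probe sets differ in sign beside a call; all others were chosen after their values were seen. Alternatives were 2 pseudocounts, 2 filters, 2 scalings, 1 probe set a gene, plain probe sets only, 2 variance models, the arrays of 2 stages alone, the actin ratio as a covariate, MK6 replicates 2 and 3 left out together and each array left out. Leaving out MK6 replicates 1 and 3 and the fit to pairs of probe sets were added after seeing the data.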

Additional observations from a re-analysis of the deposited data

How the results depend on the processing

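Of the 258 values of the 12 called member probe sets under the alternatives, 164 kept direction and call, 94 kept only the direction and 0 reversed. Changes of filter, variance model or choice of probe sets cannot alter the difference itself, nor can leaving out MK3 or MK4 arrays. Under these alternatives no reversal was possible. The count of members lower in MK6, 12 here, was 7 with scaling to a common median (4.09% of all tested were lower), 7 without a variance trend (3.45%) and 7 with the arrays of the 2 stages alone (2.42%). It was 2 of 53 with 1 probe set a gene (Srsf9 and Hnrnpl; 3.03% of all), 4 of 66 with plain probe sets only (4.12%) and 0 with the actin ratio as a covariate (0%). Without MK6 replicates 1 and 3 it was 0 (0.434%) and without replicates 2 and 3 it was 38 (10.3%). Leaving out 1 array gave 0 to 22 lower and 0 to 1 higher (Hnrnpab), and there was also 1 higher without MK6 replicates 2 and 3. For MK3 minus MKP the count of 0 became 1 (Hnrnpr) with the arrays of the 2 stages alone, and 0 to 1 with 1 array left out. For MK6 minus MK4 it became 13 without MK6 replicates 2 and 3, and 0 to 7 with 1 array left out. The F test count of 2 was 0 with 1 probe set a gene, 0 with plain probe sets, 1 without a trend, 0 with the covariate, 0 without MK6 replicates 1 and 3, 16 without replicates 2 and 3, and 0 to 11 with 1 array left out. Pairs of member probe sets called, 0 here, were 2 with the larger pseudocount, 23 without MK6 replicates 2 and 3, and 0 to 10 with 1 array left out. The cause of these changes was not tested. A common median moved the median of all tested probe sets to -0.04, from which the members lay at -0.37, beside -0.38 here. A stage with 1 array is assumed to vary like the others. No paired analysis was possible because the titles number only the MK6 arrays.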

Other observations

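A further 14 probe sets were paired with several symbols of which at least 1 meets the rule for the members, so they were not tested. Their MK6 minus MKP differences on the log2 scale ran from -1.39 to 1.08 with a median of -0.49, and 10 of the 14 were below 0.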
